A study of Mus musculus with 18 samples.

Results

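Day 1 and day 14 of a primary culture of mouse kidney proximal tubules were compared: an acute state, just after the tubules were plated, and a lasting one, reached without passage. The members, taken by their sample titles, were the 3 libraries of day 14 and the 3 of day 1 (replicates A, B and C of each), 6 of the 18 libraries of a time course that also sampled days 0, 2, 4 and 7. All came from wild type female C57BL/6 mice aged 6 weeks (the protocol gives the substrain as C57BL/6J), with no treatment. Tubules were freed with collagenase, enriched by density on Percoll and kept on plain culture plastic, and polyA RNA was sequenced. Day 0, the isolated tubules before culture, gave the level from which each gene started and was sampled from the same kind of mouse with the same lack of treatment. As a model of injury it is limited: cells on plastic have no blood or urine flow, isolation and plating are the only insult, and an enriched preparation can hold other kidney cells. The labels call the replicates biological but name no animal or dish of origin for them. A p-value here therefore speaks only of how far these libraries scatter, and that scatter may be technical.

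A proximal tubule cell that is damaged loses its brush border and transport genes, switches on injury proteins such as KIM-1 and lipocalin-2, re-expresses keratins and vimentin and activates stress pathways: NRF2 against oxidants, ATF4 against amino acid and endoplasmic reticulum stress, heat shock factors against misfolded protein, and AP-1 and NF-kB for early transcription and inflammation. After a mild insult these programs are switched off again as the tubule rebuilds. When repair fails, some injured cells stay dedifferentiated, secrete cytokines and TGF-beta, and are found beside deposits of fibronectin and collagen.

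The 6 libraries held between 25302497 and 29922994 estimated counts, and the day 0 libraries 25085362 to 37579097. Levels are in CPM, counts set to a common library size after scaling by TMM, a method that aligns the bulk of genes between libraries. A gene is called higher or lower where edgeR's quasi-likelihood test, adjusted by the Benjamini-Hochberg (BH) method over 18754 genes, gave an adjusted p under 0.05. The ± after a log2 fold change is its standard error (SE), and 3 values for a day are replicates A, B and C in that order. On day 14 against day 1, 5894 genes were higher (31.4%) and 5908 lower (31.5%), 62.9% in all, with a median log2 fold change of -0.01. The split depends on the scaling: higher genes made up 49.9% of the calls with TMM, 62.9% with library sizes alone, which moves the median of all genes by 0.25 on the log2 scale, and 73.0% with limma on log2(TPM + 1), which moves it by 0.39 (TPM is a level corrected for transcript length). Changes below are relative to TMM. Mitochondrially encoded transcripts took 4.13±0.724% of counts on day 1 and 0.932±0.0639% on day 14 (SD, n = 3).

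The cells behind the 2 states were checked against markers. Of 37 genes of proximal tubule function, 36 were lower on day 14 than on day 1 and 1 was higher (Mme, the brush border peptidase neprilysin). The call of Mme was lost in 14 of 30 alternative fits, among them DESeq2 size factors and most that leave out 1 library, and none of the 37 was higher there. Their summed level was 52054 to 60156 CPM on day 0, 8824 to 17689.6 on day 1 and 317 to 357 on day 14. The transporter genes Slc34a3 and Slc22a8 and the brush border protease gene Mep1b, which define the segment, had 0 counts on day 14. On that day the label names only the preparation from which the culture began. Of 14 endothelial markers, all 14 fell: their sum was 235 to 405 CPM on day 1 and 21.4 to 23.4 on day 14, with the transcription factor gene Erg at 0 counts on day 14. Of 14 fibroblast and pericyte markers 11 were tested, 5 of them higher (Col1a1, Col1a2, Col3a1, Acta2 and Notch3) and 5 lower (Pdgfra, Pdgfrb, Dcn, Rgs5 and Cspg4), and the sum was 56.5 to 91.5 CPM on day 1 and 223 to 272 on day 14, with Lum and Dpt at 0 counts on day 14. All 9 intercalated cell markers fell, with sums of 62.2 to 78.4 CPM and then 1.14 to 1.64, and with Slc4a1 and Foxi1 at 0 counts on day 14. Of 13 macrophage and myeloid markers tested, 2 were higher and 4 lower, and of 9 podocyte markers 3 were lower and none higher. For podocyte markers there were 5 lower without day 2 replicate C, without day 7 replicate C and with the DESeq2 Wald test. There were 2 lower with library sizes alone and without any 1 of several other libraries. Only 1 was lower with limma on log2(TPM + 1) and when tested against a fold of 2. Sums of macrophage markers were 67.2 to 69.7 CPM on day 1 and 51.2 to 55.4 on day 14, of podocyte markers 226 to 340.4 and 159.8 to 190.2, and of principal cell markers 130.3 to 184 and 233 to 295. For each of these sums the 3 libraries of one day did not overlap those of the other, and an exact two-sided permutation test gave p = 0.1, the smallest that 3 libraries against 3 allow. The part of macrophages in the inflammatory genes below was not tested. In bulk RNA fewer cells of a type and less RNA per cell cannot be told apart.

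**Figure D1:**
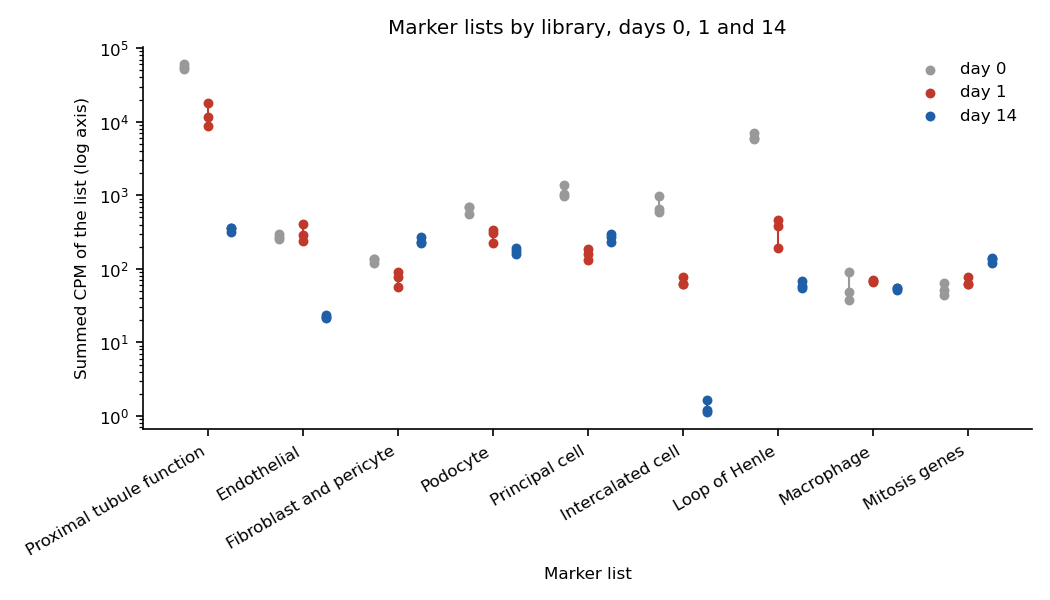
Summed CPM (log axis) of marker lists in each library of days 0, 1 and 14; each point is 1 library and the line spans the 3 of a day. Proximal tubule genes step down at both intervals, the endothelial sums of days 0 and 1 overlap and those of day 14 lie below (21.4 to 23.4 CPM), and the mitosis sums of day 14 (119 to 141 CPM) lie above those of day 1 (61.5 to 76.4 CPM).

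Mitosis genes were low on both days beside the days between. The summed level of 26 such genes was 61.5 to 76.4 CPM on day 1, 3368 to 3677 on day 4 and 119 to 141 on day 14. Between the low states, 18 of the 26 were higher on day 14 and 1 lower (median log2 fold change 1.73). Of 28 DNA replication genes 5 were higher and 6 lower. Day 7 replicate C stood apart from its own group and enters the shared estimate of spread; without it, 12 replication genes were higher and 11 lower.

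The 4 marker genes of the injured tubule parted ways between the 2 days. Havcr1 encodes KIM-1, the phosphatidylserine receptor that damaged tubule cells display (ENSMUSG00000040405, chromosome 11, 46735080 to 46779578, plus strand in GRCm38). It stood at 0.0473, 0.1801 and 0.257 CPM in replicates A, B and C on day 0, 1583, 1208 and 2249 on day 1 and 99.4, 156 and 104 on day 14. Every day 14 library was far below every day 1 library (log2 fold change -3.81 ± 0.64, edgeR adjusted p = 7.50e-05), and all 3 were still far above day 0 (log2 fold change 9.01 ± 0.97, edgeR adjusted p = 4.44e-07). Lcn2 encodes lipocalin-2 or NGAL, a secreted iron-siderophore binder used as a urinary injury marker (ENSMUSG00000026822, chromosome 2, 32384633 to 32388252, minus strand). Its level was 1.28, 0.864 and 3.64 CPM on day 0, 37.5, 21.9 and 29.9 on day 1 and 2194, 2178 and 2203 on day 14. Here the order was the reverse, day 14 above day 1 in every library (log2 fold change 6.20 ± 0.36, edgeR adjusted p = 1.10e-09). Per transcript length the pair traded places: Havcr1 had 1221 TPM and Lcn2 55.9 TPM on day 1, against 117 and 5649 TPM on day 14.

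Vim, the intermediate filament vimentin of mesenchymal and injured epithelial cells (ENSMUSG00000026728, chromosome 2, 13573927 to 13582826, plus strand), was transient. It measured 14.7, 17.97 and 16.1 CPM on day 0, 186, 189 and 239.6 on day 1 and 27.1, 13.04 and 22.3 on day 14. The day 14 libraries lay below all of day 1 (log2 fold change -3.30 ± 0.69, edgeR adjusted p = 5.91e-04) and around those of day 0, from which they did not differ by the test (log2 fold change 0.35 ± 0.66, edgeR adjusted p = 0.645). Endothelial cells also make vimentin, and their markers fell over the same interval. On day 4 the endothelial sum was 56.99 to 72.1 CPM and Vim measured 189.9, 128 and 166 CPM. The part of endothelial cells in the fall was not tested. Fn1 encodes fibronectin, the adhesive glycoprotein of provisional and fibrotic matrix (ENSMUSG00000026193, chromosome 1, 71585520 to 71653200, minus strand). It measured 1.47, 1.58 and 2.26 CPM on day 0, 26.1, 26.3 and 24.1 on day 1 and 499, 283 and 562 on day 14, rising at both steps in all libraries. Day 14 was clear of day 1 (log2 fold change 4.13 ± 0.60, edgeR adjusted p = 1.65e-05).

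**Figure D2:**
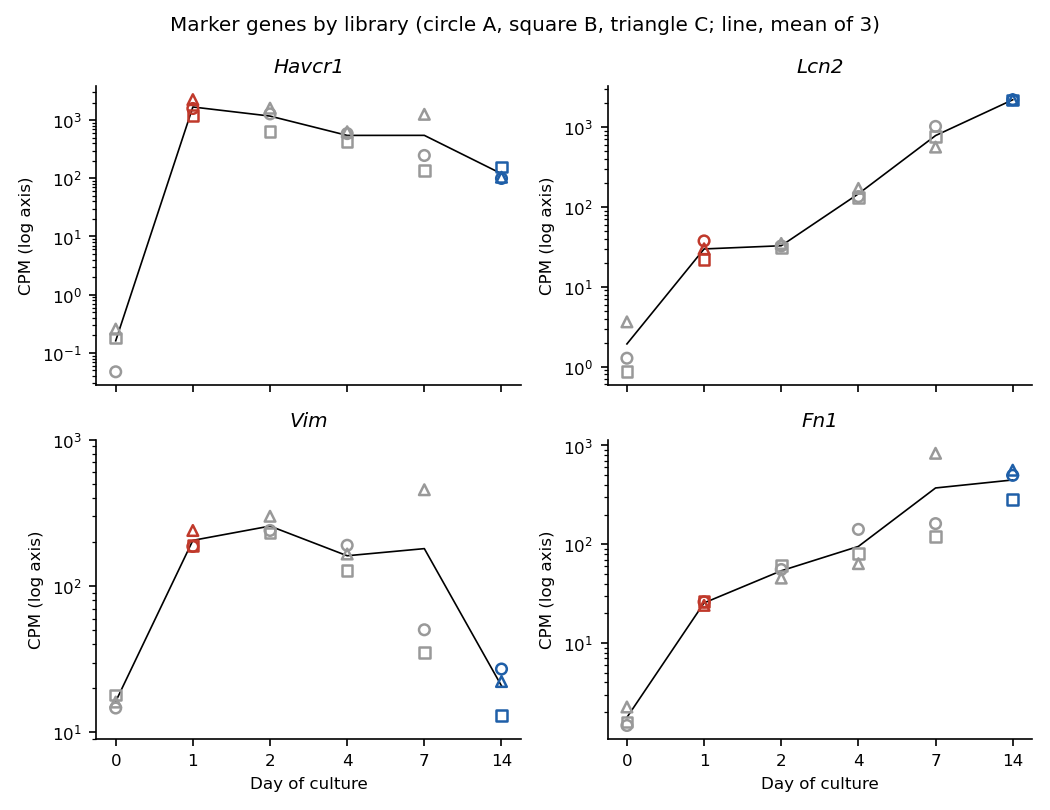
CPM (log axis) of Havcr1, Lcn2, Vim and Fn1 in all 18 libraries by day of culture (circle, replicate A; square, B; triangle, C; line, mean of 3; day 1 red, day 14 blue). Havcr1 peaks on day 1 and Vim on day 2 before both fall to day 14, Lcn2 and Fn1 have their highest means on day 14 (Lcn2 2192 CPM, Fn1 448 CPM), and day 7 replicate C lies apart from A and B for Havcr1, Vim and Fn1.

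Grouped by role, junction and matrix genes leaned towards day 14, and stress and inflammatory genes towards day 1. Of 59 junction genes 67.8% were higher on day 14 and 15.3% lower, and of 161 matrix genes 54.04% and 23.6%, beside 31.4% and 31.5% of all genes. Of 159 stress genes 30.8% were higher and 49.1% lower, and of 109 inflammatory genes 20.2% and 38.5%. Of 52 injury genes 46.2% were higher and 28.8% lower. The lean of the stress and inflammatory genes depends on scaling: limma on log2(TPM + 1) called 62 stress genes higher and 60 lower, and 30 and 30 of the inflammatory genes, where TMM gave 49 and 78, and 22 and 42.

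**Figure D3:**
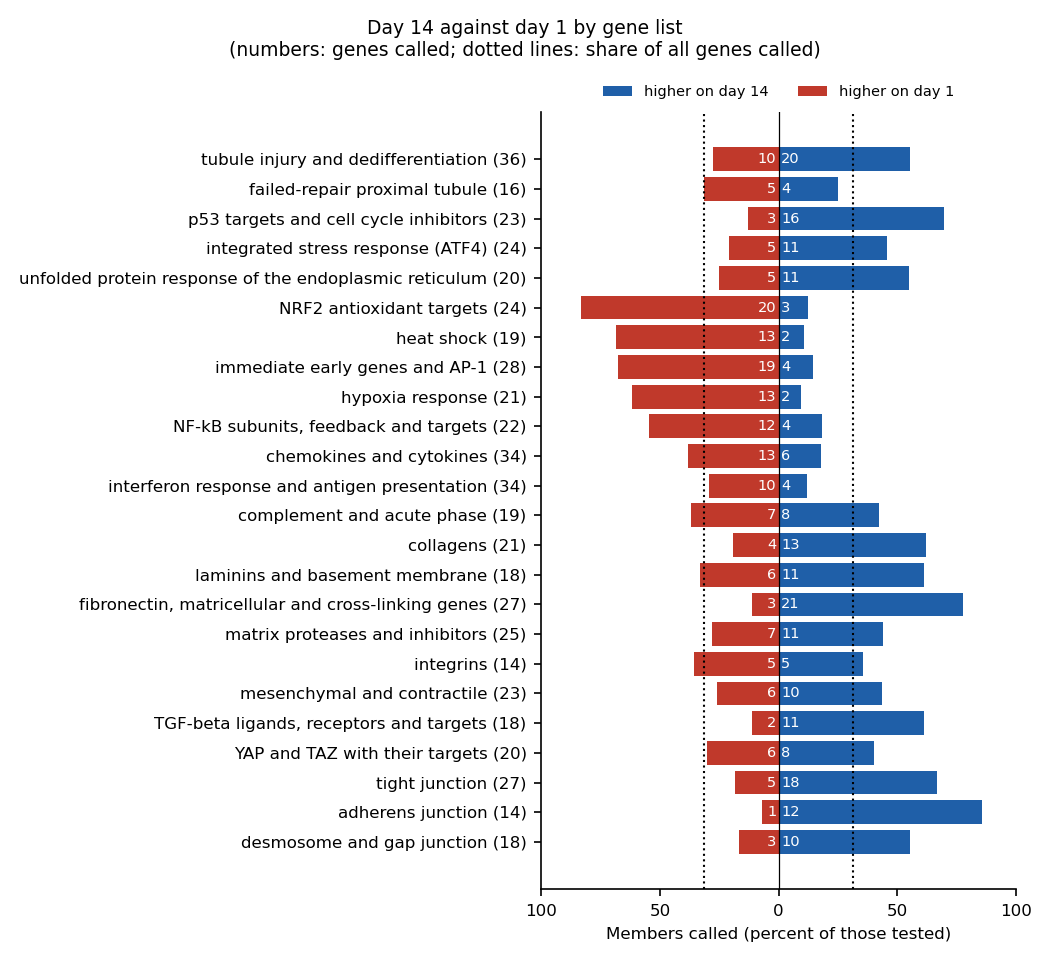
Share of the tested members of 24 gene lists (number tested in brackets) called higher on day 14 (blue, right) or higher on day 1 (red, left), in percent, with the number of genes called printed in each bar; dotted lines mark 31.4% and 31.5%, the shares over all 18754 genes. NRF2, heat shock, immediate early and hypoxia genes extend to the left and collagen, matricellular and junction genes to the right.

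In the list of tubule injury and dedifferentiation genes, 20 of 36 were higher on day 14 and 10 lower, with a median log2 fold change of 0.64. Against day 0, 26 higher and 5 lower were called on day 1, where 33.1% of all genes were higher and 37.1% lower (70.2% called). Against the same day 0 libraries, 31 higher and 1 lower were called on day 14, where 37.4% of all genes were higher and 32.1% lower (69.5% called). The 3 comparisons share libraries, so their counts stand side by side only. Among the members that fell were an envelope protein, a keratin and a lipid droplet protein. Sprr1a, a small proline-rich envelope protein induced in stressed epithelium, had 0.142, 0 and 0.565 CPM on day 0, 1475, 1407 and 1229 on day 1 and 20.01, 20.1 and 21.1 on day 14. The groups were far apart (log2 fold change -6.06 ± 0.37, edgeR adjusted p = 1.87e-09), and day 14 remained above day 0. Krt20, a keratin of urothelium and gut that injured tubules also make, went from 997, 1339 and 807 CPM on day 1 to 55.5, 54.1 and 42.9 on day 14 (log2 fold change -4.36 ± 0.42, edgeR adjusted p = 1.90e-07). Plin2, the coat protein of lipid droplets, fell from 1760.5 ± 175 to 349.7 ± 20.99 CPM (SD, n = 3; log2 fold change -2.33 ± 0.41, edgeR adjusted p = 1.12e-04).

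Other injury genes rose or were not called. Krt8, the simple-epithelial keratin, had 1739, 1867 and 1486 CPM on day 1 and 1605, 1547 and 1552 on day 14, overlapping groups that the test did not separate (log2 fold change -0.11 ± 0.16, edgeR adjusted p = 0.554), both far above the 115, 111 and 115 of day 0. Its partner Krt18 rose (log2 fold change 0.82 ± 0.16, edgeR adjusted p = 2.63e-04). Anxa1, a phospholipid-binding protein that dampens inflammation, had 42.9, 44.2 and 39.7 CPM on day 1 and 668, 596 and 523 on day 14. Day 14 was above day 1 with no overlap (log2 fold change 3.81 ± 0.15, edgeR adjusted p = 2.83e-11). Sox9, a transcription factor of regenerating tubule, rose from 56.1 ± 8.77 to 134 ± 7.62 CPM and Sox4 from 114 ± 13.9 to 299 ± 7.45 (SD, n = 3; log2 fold changes 1.26 ± 0.15 and 1.39 ± 0.11, edgeR adjusted p = 2.73e-06 and 3.77e-08). Cd44, the hyaluronan receptor, was not called (log2 fold change 0.30 ± 0.38, edgeR adjusted p = 0.509).

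Genes that mark proximal tubule cells with failed repair did not move as one, nor did all genes (31.4% higher and 31.5% lower). Of 16 tested, 4 were higher on day 14 and 5 lower (median -0.26), with 7 higher and 5 lower under library sizes alone, and 6 higher and 8 lower without day 7 replicate C. Dcdc2a, a doublecortin-domain protein of microtubules, rose from 7.68, 7.36 and 6.24 CPM on day 1 to 274, 237 and 219 on day 14 (log2 fold change 5.09 ± 0.46, edgeR adjusted p = 9.56e-08). Cxcl1, a neutrophil chemokine, fell (below). Vcam1, the leukocyte adhesion molecule by which this cell state is often recognised, stayed low: 5.52, 5.09 and 4.32 CPM on day 1 and 3.29, 1.46 and 2.44 on day 14 (log2 fold change -1.03 ± 0.44, edgeR adjusted p = 0.0546). Ccl2, a monocyte chemokine, was lower still, with 1.91, 2.23 and 1.38 CPM and 0.435, 0.926 and 0.977 CPM, and was not called (log2 fold change -1.17 ± 0.79, edgeR adjusted p = 0.2103).

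Targets of the antioxidant factor NRF2 had the highest share of lower calls among the 7 stress lists. Of these, 3 of 24 were higher on day 14 and 20 lower, with a median log2 fold change of -1.24. On day 1, 21 had been higher than on day 0, and 15 of the 24 had their highest mean of the 6 days on day 1. On day 14, 12 were higher than on day 0 and 10 lower (median log2 fold change 0.17). Srxn1, sulfiredoxin, which repairs over-oxidised peroxiredoxins, measured 140.5, 119.7 and 122 CPM on day 0, 2798, 2599 and 2149 on day 1 and 133, 139 and 133 on day 14. The day 14 libraries were back among those of day 0 (log2 fold change 0.09 ± 0.15, edgeR adjusted p = 0.625 against day 0), after a fall from day 1 (log2 fold change -4.22 ± 0.17, edgeR adjusted p = 4.64e-11). Hmox1, heme oxygenase, which breaks down heme, fell from 3403, 4218 and 2601 to 206, 226 and 214 CPM (log2 fold change -3.98 ± 0.22, edgeR adjusted p = 5.53e-10) and remained above the 36.2, 34.4 and 42.3 of day 0. The redox enzymes Txnrd1 and Gclm fell by 1.95 and 1.59 on the log2 scale. Ephx1, an epoxide hydrolase on the same list, went the other way, from 26.5, 23.8 and 28.9 CPM on day 1 to 230.4, 225 and 232 on day 14 (log2 fold change 3.11 ± 0.24, edgeR adjusted p = 2.22e-08).

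The integrated stress response, in which ATF4 raises amino acid synthesis and transport genes, had more members higher than lower. Of its members, 11 of 24 were higher on day 14 and 5 lower, with a median log2 fold change of 0.47, the lower count being 3 without day 1 replicate B or without day 14 replicate A or C. On day 1, 20 of the 24 had been above day 0, and on day 14 again 20. Gdf15, a secreted stress cytokine that acts on appetite centres of the hindbrain, measured 6.96, 7.45 and 7.65 CPM on day 0, 123, 109.8 and 97.1 on day 1 and 751, 857 and 748 on day 14. Each step was upward in all libraries (log2 fold change 2.84 ± 0.26, edgeR adjusted p = 1.40e-07 for the later one). The pseudokinase gene Trib3 rose from 90.1, 84.5 and 79.01 to 184, 226 and 192 CPM and Chac1, a glutathione-degrading enzyme, from 34.7, 39.9 and 27.3 to 78.2, 81.9 and 82.2 (log2 fold changes 1.25 ± 0.34 and 1.25 ± 0.41, edgeR adjusted p = 0.004698 and 0.0138). Ddit3, the transcription factor CHOP, was not called, with 57.7, 65.4 and 57.1 CPM on day 1 and 63.6, 67.1 and 60.9 on day 14 (log2 fold change 0.09 ± 0.36, edgeR adjusted p = 0.847). The gene of ATF4 itself was lower on day 14, at 235, 284 and 249.9 CPM against 576, 575 and 569 on day 1 (log2 fold change -1.16 ± 0.19, edgeR adjusted p = 5.92e-05), as was the amino acid transporter chain gene Slc3a2 (log2 fold change -1.80 ± 0.12, edgeR adjusted p = 3.16e-09).

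**Figure D4:**
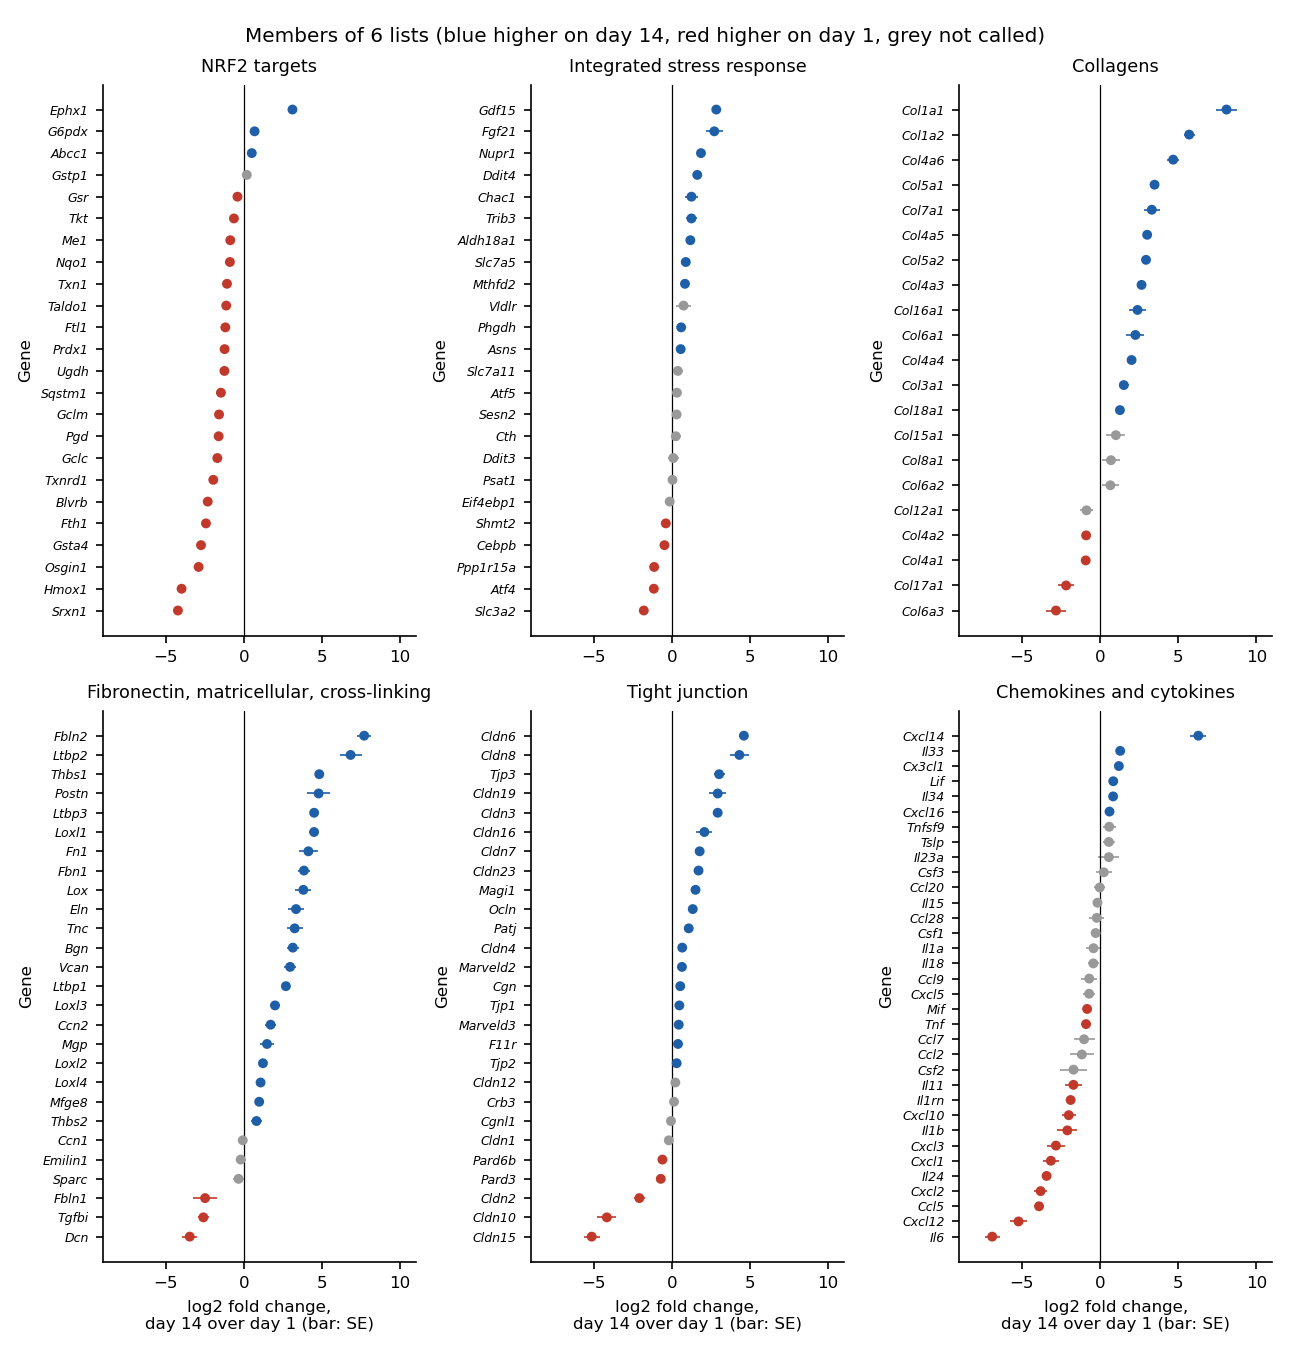
Log2 fold change of day 14 over day 1 for every tested member of 6 lists, with its standard error as a bar (blue, called higher on day 14; red, called lower; grey, not called). NRF2 targets lie to the left from Srxn1 at -4.22 while integrated stress response genes spread around 0 up to Gdf15 at 2.84, and matrix lists lie to the right with Col1a1 at 8.09 and Fbln2 at 7.70. The value drawn for Il6, at 0 counts on day 14, depends on the prior count.

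The courses of the NRF2 and integrated stress response lists were set beside their regulatory sequence. Promoter windows from RefSeq (GRCm38.p6, 250 bases before to 50 after a start site) were searched on both strands. The patterns were the core of the antioxidant response element that NRF2 binds (TGACNNNGC) and the C/EBP-ATF element read by ATF4 (TGATGNAA). These 2 patterns do not contain each other. The antioxidant core stood in a window of 8 of 19 NRF2 list genes and in 12.4% of all 32851 windows. Of those 8 genes, 7 were lower on day 14 and 1, G6pdx, higher, beside 20 lower and 3 higher of all 24 tested genes of the list. The C/EBP-ATF element stood in a window of 7 of 21 integrated stress response genes and in 3.97% of all windows, and of those 7, 5 (Asns, Chac1, Fgf21, Nupr1 and Trib3) were higher on day 14 and none lower, Asns with an adjusted p of 0.0467 only. All 24 tested genes of that list gave 11 higher and 5 lower. Whether a match goes with the direction of change was not tested. A gene with several start sites had several chances to match, so the list shares and the share per window are not on the same footing. Shown for each motif is the called member with a match that changed most. The Srxn1 window (chr2:152105274-152105573, plus strand) has its match in capitals just after the start site; the Fgf21 window (chr7:45615441-45615740, minus strand) has it upstream of the start.
Srxn1: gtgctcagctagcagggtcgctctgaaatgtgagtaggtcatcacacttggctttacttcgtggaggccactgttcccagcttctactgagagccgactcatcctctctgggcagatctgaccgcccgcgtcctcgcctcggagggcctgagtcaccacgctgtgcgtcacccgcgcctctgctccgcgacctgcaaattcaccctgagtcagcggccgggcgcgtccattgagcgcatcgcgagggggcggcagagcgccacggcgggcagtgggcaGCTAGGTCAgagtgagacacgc
Fgf21: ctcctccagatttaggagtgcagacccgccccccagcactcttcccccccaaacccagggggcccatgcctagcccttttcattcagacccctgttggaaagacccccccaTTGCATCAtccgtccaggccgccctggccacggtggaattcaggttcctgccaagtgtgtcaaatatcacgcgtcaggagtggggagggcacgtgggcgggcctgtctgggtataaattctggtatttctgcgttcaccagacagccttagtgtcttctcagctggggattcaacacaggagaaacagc
A match describes letters and no binding was measured. Fgf21, a hormone of the fasting and stress response, was a minor transcript here, with 0.0354, 0.0856 and 0.218 CPM on day 1 and 1.03, 1.25 and 1.14 on day 14 (log2 fold change 2.71 ± 0.53, edgeR adjusted p = 3.08e-04).

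In the unfolded protein response of the endoplasmic reticulum, 11 of 20 were higher on day 14 and 5 lower, with a median log2 fold change of 0.43. Against day 0, 5 were higher and 10 lower on day 1 (median log2 fold change -0.52). On day 14, 6 were higher than on day 0 and 6 lower (median 0.09). Their summed level was 5419 to 6370 CPM on day 0, 4205 to 5072 on day 1 and 5253 to 5869 on day 14. The higher members included folding enzymes and chaperones, and the lower ones a regulator and a disposal factor. Pdia4, a disulfide isomerase, went from 89.01, 91.7 and 78.7 to 250.2, 266 and 280.2 CPM (log2 fold change 1.62 ± 0.14, edgeR adjusted p = 6.86e-08) and Hyou1, a large chaperone, from 32.3, 31.2 and 37.4 to 87.9, 102 and 97.8 (log2 fold change 1.51 ± 0.10, edgeR adjusted p = 5.09e-09). Xbp1, a transcription factor of the response, went from 285, 289 and 285 to 159.8, 159.5 and 171 CPM (log2 fold change -0.81 ± 0.10, edgeR adjusted p = 2.66e-06), and Herpud1, a factor of protein disposal, fell by 1.61 on the log2 scale. Hspa5, the master chaperone BiP, was not called (log2 fold change -0.25 ± 0.19, edgeR adjusted p = 0.263). Among 17 of these genes with a promoter entry, 7 held the endoplasmic reticulum stress element (CCAAT and CCACG with 9 bases of any kind between), against 0.119% of all windows. Of those, 4 were higher on day 14 and 1 lower. Hsp90b1, the chaperone GRP94, holds it on each strand (chr10:86705395-86705694, minus strand, capitals) and rose from 331, 354 and 304 to 605, 646 and 707 CPM (log2 fold change 0.98 ± 0.16, edgeR adjusted p = 4.86e-05).
Hsp90b1: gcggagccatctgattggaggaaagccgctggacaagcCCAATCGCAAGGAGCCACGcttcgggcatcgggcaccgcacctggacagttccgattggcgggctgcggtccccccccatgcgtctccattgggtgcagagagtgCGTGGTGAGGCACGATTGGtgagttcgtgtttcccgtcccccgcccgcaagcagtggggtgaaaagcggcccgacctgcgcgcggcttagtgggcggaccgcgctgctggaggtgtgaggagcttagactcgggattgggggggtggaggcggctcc

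Of the cytosolic heat shock genes, 2 of 19 were higher on day 14 and 13 lower, with a median log2 fold change of -0.62 (7 lower with limma on log2(TPM + 1), and 3 when tested against a fold of 2). Against day 0, 10 of the 19 were still higher on day 14 and 5 lower. Dnajb1, an HSP70 co-chaperone, fell from 115, 146 and 110.3 to 60.1, 57.9 and 62.2 CPM (log2 fold change -1.04 ± 0.12, edgeR adjusted p = 9.76e-07), below the 84.4, 77.5 and 66.4 of day 0. Hspb1, a small heat shock protein of the actin cytoskeleton, was one of the 2 that rose, from 95.8, 90.8 and 96.7 to 137, 156 and 121 CPM (log2 fold change 0.55 ± 0.15, edgeR adjusted p = 0.00562). Hspa1a and Hspa1b are near-identical copies whose reads can be split between them, which leaves their levels uncertain.

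Of the immediate early genes and AP-1 subunits, which answer growth factors and stress within minutes to hours, 4 of 28 were higher on day 14 and 19 lower, with a median log2 fold change of -1.03. Fosl1, the AP-1 subunit FRA-1, had 0 counts in all day 0 libraries. It reached 672, 684 and 648 CPM on day 1 and stood at 15.6, 24.8 and 23.6 on day 14, lower than on day 1 (log2 fold change -4.96 ± 0.39, edgeR adjusted p = 7.93e-08) and still above day 0. Jun, its partner, had 346, 537 and 243 CPM on day 0, 506, 596 and 407 on day 1 and 95.8, 77.5 and 83.5 on day 14. All day 14 libraries were below both earlier days (log2 fold change -2.55 ± 0.24, edgeR adjusted p = 1.53e-07 against day 1). Ier3, an early-response gene of cell survival, was not called, with 201, 212 and 199 CPM on day 1 and 206, 229 and 212 on day 14 (log2 fold change 0.08 ± 0.10, edgeR adjusted p = 0.512), though library sizes alone and limma on TPM called it higher. The AP-1 site TGANTCA was found in the windows of 0 of 22 list genes and in 7.81% of all windows, which says only that these letters are not in those windows.

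Of the hypoxia genes, 2 of 21 were higher on day 14 and 13 lower, with a median log2 fold change of -1.27. None was higher without day 1 replicate A or without day 14 replicate A. The highest mean fell on day 1 for 13 of 21, on day 7 for 6 and on day 14 for none. Their summed level was 8844 to 9964 CPM on day 1, 3960 to 5418 on day 2 and 3968 to 4336 on day 4. Day 7 libraries ran from 3083 to 10273 CPM with a median of 9441, and day 14 libraries from 4249 to 5160. Car9, a carbonic anhydrase induced by HIF-1, went from 52.1, 45.7 and 42.3 CPM on day 1 to 1.03, 0.499 and 0.684 on day 14 (log2 fold change -5.85 ± 0.54, edgeR adjusted p = 1.47e-07), below the 8.85, 8.03 and 6.16 of day 0. Ldha and Pgk1, enzymes of glycolysis, fell by 1.78 and 1.27 on the log2 scale. Vegfa, the angiogenic growth factor, was not called, with 301, 373 and 288 CPM on day 1 and 373, 290.0 and 288 on day 14 (log2 fold change -0.02 ± 0.45, edgeR adjusted p = 0.976). The glucose transporter gene Slc2a1 was higher on day 14, at 1094, 850.2 and 747 against 429, 525 and 431 CPM, but its call was marginal (log2 fold change 0.96 ± 0.40, edgeR adjusted p = 0.0464) and was lost without any 1 library of day 1 and without day 14 replicate A or B (adjusted p 2.28e-05 to 0.726 over all alternatives).

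Cell cycle inhibitors and p53 targets were mostly higher in the lasting state. Of this list, 16 of 23 were higher on day 14 and 3 lower, with a median log2 fold change of 0.91, and 11 of 23 had their highest mean on day 14. Cdkn2b, the kinase inhibitor p15 that TGF-beta induces, measured 1.28, 0.396 and 1.18 CPM on day 0, 8.49, 7.19 and 7.29 on day 1 and 114, 117 and 124 on day 14. The day 14 libraries were well clear of day 1 (log2 fold change 3.94 ± 0.22, edgeR adjusted p = 8.28e-10). Cdkn2a, which encodes p16 and ARF, had 0 counts on day 1 and 0.715, 1.53 and 1.04 CPM on day 14, at least 28.9-fold higher (a count of 0 was set to a floor of 3 for the group). Cdkn1a, the inhibitor p21, was already at 557, 469.6 and 587 CPM on day 1 and was not called different at 433, 449.8 and 459.8 on day 14 (log2 fold change -0.26 ± 0.21, edgeR adjusted p = 0.2898). Mdm2, the ligase that degrades p53, fell from 326, 328 and 305 to 193, 190.5 and 195 CPM (log2 fold change -0.73 ± 0.10, edgeR adjusted p = 7.15e-06), while Trp53inp1 rose (log2 fold change 1.25 ± 0.12, edgeR adjusted p = 1.46e-07). Phlda3, a p53-induced brake on AKT, rose (log2 fold change 1.97 ± 0.18, edgeR adjusted p = 1.61e-07).

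Between days 1 and 14, more NF-kB genes fell than rose. Of its subunits, feedback inhibitors and targets, 4 of 22 were higher on day 14 and 12 lower, with a median log2 fold change of -0.67. Against day 0, 14 of the 22 were still higher on day 14 and 5 lower, and 5 had their highest mean of the 6 days on day 1. Nfkbia, the inhibitor IkB-alpha, which NF-kB itself induces, measured 36.2, 37.6 and 35.9 CPM on day 0, 106, 114 and 91.2 on day 1 and 25.2, 23.2 and 21.1 on day 14. Day 14 lay below day 1 and below day 0 in every library (log2 fold change -2.16 ± 0.13, edgeR adjusted p = 2.06e-09 against day 1). Tnfaip3, the inhibitor A20, fell (log2 fold change -1.72 ± 0.23, edgeR adjusted p = 6.93e-06). Icam1, the leukocyte adhesion molecule, fell from 41.8, 46.9 and 45.1 to 6.65, 4.38 and 5.86 CPM (log2 fold change -2.97 ± 0.19, edgeR adjusted p = 2.59e-09); endothelial cells express it too, and the part of their falling markers was not tested. Tnfaip2 went against the list, from 108, 122 and 109 CPM to 298, 286 and 271 (log2 fold change 1.33 ± 0.24, edgeR adjusted p = 1.29e-04). A kB pattern (GGG, 2 bases of any kind, TT, any base, CC) stood in a window of 7 of 17 of these genes and in 4.79% of all windows, and 6 of the 7 were lower on day 14 with none higher. The Nfkbia window (chr12:55492598-55492897, minus strand) carries it, in capitals, close before the start site.
Nfkbia: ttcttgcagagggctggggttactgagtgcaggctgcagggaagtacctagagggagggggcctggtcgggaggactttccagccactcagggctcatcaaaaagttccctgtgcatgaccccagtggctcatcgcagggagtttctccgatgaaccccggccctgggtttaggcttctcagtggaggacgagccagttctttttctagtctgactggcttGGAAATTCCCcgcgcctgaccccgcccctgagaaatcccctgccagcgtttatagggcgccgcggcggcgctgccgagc

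Of the chemokines and cytokines, 6 of 34 were higher on day 14 and 13 lower, with a median log2 fold change of -0.70, a count of lower members near the background of 31.5%. Among those that fell were neutrophil attractants and interleukins. Of the 34, 20 were higher on day 14 than on day 0 and 6 lower. Cxcl1 went from 0.805, 2.74 and 0.257 CPM on day 0 to 52.6, 53.8 and 36.2 on day 1 and 4.35, 6.697 and 4.85 on day 14, and the related Cxcl2 from 24.7, 27.7 and 15.8 on day 1 to 1.46, 2.53 and 0.717. Both fell with no overlap of libraries (log2 fold change -3.15 ± 0.51, edgeR adjusted p = 5.44e-05 for Cxcl1 and log2 fold change -3.80 ± 0.41, edgeR adjusted p = 7.05e-07 for Cxcl2). Il24, a cytokine of wounded epithelium, fell from 27.9, 25.8 and 34.8 to 2.18, 3.49 and 2.41 CPM (log2 fold change -3.42 ± 0.29, edgeR adjusted p = 1.81e-07). Il6, the acute-phase cytokine, had 9.94, 9.11 and 6.31 CPM on day 1 and 0 counts in every library of days 0 and 14, at least 256-fold higher on day 1 by the same floor. Cxcl12, a chemokine of stroma and endothelium, fell from 18.1, 30.1 and 9.94 to 0.373, 0.356 and 0.619 CPM (log2 fold change -5.22 ± 0.57, edgeR adjusted p = 8.38e-07), beside the endothelial markers.

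Beside the 13 that fell, 6 of the list were higher on day 14 than on day 1 and 15 were not called. Only 1 of the 34 had its highest mean of the 6 days on day 14. Csf1, which sustains macrophages, had 212, 216 and 163 CPM on day 1 and 159, 141 and 186 on day 14, overlapping groups (log2 fold change -0.28 ± 0.12, edgeR adjusted p = 0.0553), both above the 5.92, 6.34 and 6.72 of day 0. DESeq2 called Csf1 lower on day 14, as did the fits without day 1, day 7 or day 14 replicate C. Ccl20, which attracts cells that carry CCR6, was not called, with 13.5, 13.4 and 24.5 CPM on day 1 and 9.45, 26.4 and 14.96 on day 14 (log2 fold change -0.02 ± 0.36, edgeR adjusted p = 0.961), between which it had reached 399, 555 and 559 CPM on day 4. Cxcl14, a chemokine of quiescent epithelium, was a late gene, at 0.0708, 0.0856 and 0.181 CPM on day 1 and 15.5, 12.9 and 14.7 on day 14 (log2 fold change 6.29 ± 0.51, edgeR adjusted p = 3.58e-08). Il34, the other ligand of the CSF1 receptor, rose (log2 fold change 0.83 ± 0.22, edgeR adjusted p = 0.00406).

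Interferon response and antigen presentation genes showed 4 higher and 10 lower of 34 (median -0.51), a lower share close to the background of 31.5%. There were 6 higher and 5 lower by limma on log2(TPM + 1), 3 higher and 6 lower without day 1 replicate A, and 2 higher and 15 lower without day 1 replicate B. The day 1 libraries disagreed with one another: Ifit1, an antiviral RNA-binding protein, had 76.4, 11.98 and 50.2 CPM in A, B and C, and Isg15, a ubiquitin-like modifier, 23.6, 3.77 and 20.4. Replicate B was the low one for both, and neither was called (Ifit1, log2 fold change -0.85 ± 0.74, edgeR adjusted p = 0.335; Isg15, log2 fold change -0.98 ± 0.61, edgeR adjusted p = 0.175). 

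Of complement and acute phase genes, 8 of 19 were higher on day 14 and 7 lower, with a median log2 fold change of 0.08, beside 31.4% and 31.5% of all genes. Cfb, factor B of the alternative pathway, had 716, 786 and 718 CPM on day 0, 185, 268 and 164 on day 1 and 2.299, 2.99 and 2.802 on day 14, a descent without overlap (log2 fold change -6.22 ± 0.34, edgeR adjusted p = 5.81e-10). C2, a protease of the classical pathway, followed the same order (109, 37.1 and 1.51 CPM on average; log2 fold change -4.55 ± 0.42, edgeR adjusted p = 1.20e-07). Cp, the copper carrier ceruloplasmin, rose from 5.02, 6.38 and 2.94 to 131, 109 and 116 CPM (log2 fold change 4.62 ± 0.34, edgeR adjusted p = 1.27e-08) and Masp1, a lectin-pathway protease, from 0.495, 0.214 and 0.254 to 11.2, 10.7 and 10.1 (log2 fold change 4.76 ± 0.56, edgeR adjusted p = 1.89e-06).

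Matrix genes had the highest median log2 fold change of the 5 roles, 0.87. Of fibronectin, matricellular and cross-linking genes, 21 of 27 were higher on day 14 and 3 lower, with a median log2 fold change of 2.69. Thbs1, thrombospondin-1, which activates latent TGF-beta, measured 69.6, 72.1 and 72.7 CPM on day 0, 169, 172 and 138 on day 1 and 4332, 4278 and 4994 on day 14. Day 14 stood far above both earlier days (log2 fold change 4.83 ± 0.19, edgeR adjusted p = 3.13e-11). Fbln2, fibulin-2, an elastic-fibre and basement membrane protein, had been lower on day 1 (2.12, 2.18 and 3.34 CPM) than on day 0 (4.73, 6.77 and 7.03) and reached 512, 472 and 653 on day 14 (log2 fold change 7.70 ± 0.44, edgeR adjusted p = 9.88e-10). Ltbp3, a latent TGF-beta binding protein, went from 6.69, 7.83 and 5.29 to 157, 135 and 159 CPM (log2 fold change 4.50 ± 0.20, edgeR adjusted p = 9.22e-11), and the collagen cross-linkers Lox and Loxl1 rose by 3.81 and 4.50 on the log2 scale. The matricellular genes Sparc and Ccn1 were not called (Sparc, log2 fold change -0.34 ± 0.34, edgeR adjusted p = 0.413; Ccn1, log2 fold change -0.07 ± 0.24, edgeR adjusted p = 0.818).

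Of the collagens, 13 of 21 were higher on day 14 and 4 lower, with a median log2 fold change of 2.01. Col1a1, a chain of fibrillar collagen I, had 0.426, 0.468 and 1.797 CPM on day 0, 0.0708, 0.257 and 0.2901 on day 1 and 58.6, 81.3 and 83.8 on day 14. All day 14 libraries were above both earlier days (log2 fold change 8.09 ± 0.66, edgeR adjusted p = 3.51e-08). Its partner chain Col1a2 went from 1.17, 1.67 and 0.725 CPM on day 1 to 57.6, 61.2 and 75.4 on day 14 (log2 fold change 5.70 ± 0.36, edgeR adjusted p = 2.59e-09). Per transcript length they remained modest, at 21.9 and 21.3 TPM beside 100.4 TPM of Fn1. Fibroblast markers did not move as a set: Acta2 rose from 2.26, 2.696 and 1.49 to 52.98, 34.6 and 45.6 CPM while the fibroblast receptor gene Pdgfra went from 3.36, 3.17 and 1.38 to 0.5904, 0.249 and 0.652 and Dcn, decorin, from 2.41, 1.37 and 1.27 to 0.0311, 0.0712 and 0.163. The part of fibroblasts or pericytes in the collagen I rise was not tested.

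In collagen IV, the network of basement membranes, the chains moved in opposite directions. Col4a1, found in all basement membranes, had 434, 459.8 and 332 CPM on day 1 and 235, 197 and 215 on day 14 (log2 fold change -0.92 ± 0.25, edgeR adjusted p = 0.00413). Its partner Col4a2 fell alongside (189 to 101 CPM on average, log2 fold change -0.89 ± 0.24, edgeR adjusted p = 0.00361), though limma on log2(TPM + 1) called neither. The chains of the glomerular and distal tubular network rose. Col4a3 had 45.2, 47.9 and 25.7 CPM on day 1 and 264, 202 and 281 on day 14 (log2 fold change 2.65 ± 0.22, edgeR adjusted p = 3.56e-08). Col4a4 rose from 22.6 ± 2.74 to 91.4 ± 7.87 CPM and Col4a5 from 23.8 ± 3.81 to 192 ± 22.9 (SD, n = 3; log2 fold changes 2.01 ± 0.17 and 3.01 ± 0.23, edgeR adjusted p = 4.77e-08 and 2.02e-08). Col4a6 began near 0, with 0.566, 0.984 and 0.218 CPM on day 1, and had 17.3, 15.2 and 17.04 on day 14 (log2 fold change 4.68 ± 0.37, edgeR adjusted p = 2.56e-08). On day 0, Col4a3 had stood at 294, 227 and 207 CPM, a level that overlapped day 14 (log2 fold change 0.04 ± 0.20, edgeR adjusted p = 0.875 against day 0). Podocytes make these chains, and of 9 podocyte markers 3 fell between days 1 and 14 and none rose, with the other counts given above; their part was not tested.

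Of laminins and other basement membrane genes, 11 of 18 were higher on day 14 and 6 lower, with a median log2 fold change of 1.08. Agrn, the heparan sulfate proteoglycan agrin, rose from 82.6, 77.7 and 90.3 to 702, 706 and 753 CPM (log2 fold change 3.11 ± 0.09, edgeR adjusted p = 5.10e-12). Hspg2, perlecan, rose from 3.71, 6.38 and 4.53 to 100.4, 71.2 and 131 CPM (log2 fold change 4.36 ± 0.33, edgeR adjusted p = 1.41e-08). Lamb1, a laminin chain, rose from 81.9, 94.9 and 87.9 to 475, 424 and 487 CPM (log2 fold change 2.39 ± 0.09, edgeR adjusted p = 3.37e-11). The libraries of the 2 days did not overlap for any of the 3. Tinagl1, a tubulointerstitial antigen relative, fell from 499, 509 and 492 to 160.5, 136 and 139 CPM (log2 fold change -1.79 ± 0.24, edgeR adjusted p = 8.57e-06). The laminin chain gene Lama4 and nidogen gene Nid2, both expressed in vessels, fell by 3.49 and 2.97 on the log2 scale beside the endothelial markers.

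Some matrix proteases fell after day 1 and others rose. Of proteases and their inhibitors, 11 of 25 were higher on day 14 and 7 lower, with a median log2 fold change of 0.46. Over all genes 31.4% were higher and 31.5% lower. The stromelysin genes Mmp10 and Mmp3 were acute. Mmp10 had 0 counts on day 0, 37.9, 38.1 and 22.6 CPM on day 1 and 3.201, 3.598 and 3.29 on day 14 (log2 fold change -3.26 ± 0.27, edgeR adjusted p = 1.42e-07). Mmp3 had 18.7, 78.01 and 61.7 CPM on day 1, with replicate A the lowest, and 0.0621, 0.214 and 0.195 on day 14 (log2 fold change -7.87 ± 0.87, edgeR adjusted p = 1.01e-06). Plaur, the urokinase receptor, fell from 786, 793 and 691 to 228, 246 and 233 CPM (log2 fold change -1.68 ± 0.11, edgeR adjusted p = 3.62e-09) and stayed well above the 2.37, 2.92 and 2.62 of day 0. Mmp14, the membrane-bound collagenase, was late, at 18.7, 19.6 and 14.8 CPM on day 1 and 247, 190.5 and 212 on day 14 (log2 fold change 3.61 ± 0.21, edgeR adjusted p = 1.29e-09), and so was Mmp11 (log2 fold change 4.57 ± 0.28, edgeR adjusted p = 1.92e-09). Timp2, which both inhibits metalloproteinases and helps activate MMP2, rose (log2 fold change 3.40 ± 0.28, edgeR adjusted p = 4.57e-08).

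Of the TGF-beta ligands, receptors and targets, 11 of 18 were higher on day 14 and 2 lower, with a median log2 fold change of 0.73; none had its highest mean on day 1 and 8 had it on day 14. Tgfb2 was a late ligand, at 1.84, 2.74 and 1.74 CPM on day 1 and 114, 82.7 and 96.8 on day 14 (log2 fold change 5.50 ± 0.49, edgeR adjusted p = 8.91e-08), whereas Tgfb1 overlapped, at 11.2, 18.1 and 12.5 and 14.1, 15.03 and 16.2 (log2 fold change 0.12 ± 0.22, edgeR adjusted p = 0.657). The receptor gene Tgfbr2 rose (log2 fold change 1.42 ± 0.11, edgeR adjusted p = 2.05e-08), and Pmepa1, a target that feeds back on the pathway, from 85.2, 95.2 and 83.4 to 356, 334 and 371 CPM (log2 fold change 2.01 ± 0.16, edgeR adjusted p = 1.96e-08).

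YAP and TAZ are coactivators that answer to stiff substrate and cell spreading. Of their list, 8 of 20 were higher on day 14 and 6 lower, with a median log2 fold change of 0.04. Beside this stand 31.4% of all genes higher and 31.5% lower. Ankrd1, a cardiac ankyrin repeat protein and standard target, measured 0.805, 0.432 and 0.462 CPM on day 0, 35.98, 36.5 and 26.7 on day 1 and 451, 444 and 388 on day 14. It rose at both steps in every library (log2 fold change 3.69 ± 0.15, edgeR adjusted p = 3.37e-11 for the later one). The regulator gene Amotl1 (log2 fold change 3.09 ± 0.14, edgeR adjusted p = 1.28e-10) and the target Ccn2 (log2 fold change 1.71 ± 0.37, edgeR adjusted p = 7.56e-04) rose from day 1 to day 14 as well. Ajuba, a LIM adaptor, was not called, with 326, 325 and 325 CPM on day 1 and 358, 371 and 349 on day 14 (log2 fold change 0.14 ± 0.11, edgeR adjusted p = 0.252), but was called higher with library sizes alone, with limma on TPM, with only the libraries compared and without day 7 replicate C. The genes of the coactivators, Yap1 and Wwtr1, were slightly lower (Yap1, log2 fold change -0.33 ± 0.08, edgeR adjusted p = 0.00126; Wwtr1, log2 fold change -0.57 ± 0.11, edgeR adjusted p = 2.59e-04). The hexamer GGAATG of TEAD factors, YAP's DNA-binding partners, stood in a window of 10 of 15 list genes and in 14.7% of all windows. Of those 10 genes, 3 were higher and 2 lower. Ankrd1 (chr19:36119795-36120094, minus strand) holds it in 2 places, in capitals.
Ankrd1: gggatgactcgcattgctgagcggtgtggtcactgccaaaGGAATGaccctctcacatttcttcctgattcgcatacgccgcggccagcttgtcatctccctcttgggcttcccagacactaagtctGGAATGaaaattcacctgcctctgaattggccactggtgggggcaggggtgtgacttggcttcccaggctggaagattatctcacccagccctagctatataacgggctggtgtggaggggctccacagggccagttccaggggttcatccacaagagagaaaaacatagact

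Mesenchymal and contractile genes divided, and integrins did too, as did all genes (31.4% higher and 31.5% lower). Of mesenchymal and contractile genes, 10 of 23 were higher on day 14 and 6 lower, with a median log2 fold change of 0.05. Cnn2, calponin-2, rose from 18.2, 18.3 and 19.04 to 325, 315 and 319 CPM (log2 fold change 4.10 ± 0.16, edgeR adjusted p = 2.83e-11), and Tpm1, a tropomyosin, and Flna, filamin, by 2.23 and 1.81 on the log2 scale. The transcription factor genes Zeb1 and Zeb2, known for epithelial-mesenchymal transition, fell with Vim: Zeb2 had 32.6, 43.9 and 33.1 CPM on day 1 and 2.77, 1.71 and 2.57 on day 14 (log2 fold change -3.91 ± 0.54, edgeR adjusted p = 9.96e-06), beside the endothelial markers. Of the integrins, 5 of 14 were higher on day 14 and 5 lower, with a median log2 fold change of 0.11. Itga3 and Itgb4, laminin receptors of epithelium, rose by 1.84 and 2.18, and Itga6 fell by 1.08 on the log2 scale.

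More junction genes were higher than lower on day 14. Of tight junction genes, 18 of 27 were higher on day 14 and 5 lower, with a median log2 fold change of 0.53. Cldn6, a claudin of embryonic epithelium, went from 4.42, 4.75 and 3.92 to 102, 113 and 107 CPM (log2 fold change 4.60 ± 0.25, edgeR adjusted p = 4.68e-10) and Cldn3 from 22.5, 24.8 and 30.2 to 198, 199 and 194 (log2 fold change 2.92 ± 0.18, edgeR adjusted p = 1.79e-09). Cldn7, which like Cldn3 belongs to distal nephron segments, rose (log2 fold change 1.77 ± 0.15, edgeR adjusted p = 3.62e-08), and so did Ocln, occludin (log2 fold change 1.33 ± 0.18, edgeR adjusted p = 9.77e-06). Of 9 principal cell markers of the collecting duct, 3 were higher and 2 lower, and their sum was higher on day 14 (above). Of 5 distal convoluted tubule markers 2 were higher and 3 lower, with sums of 168 to 333 CPM on day 1 and 52.003 to 71.7 on day 14. Of 8 loop of Henle markers 2 were higher and 4 lower, with sums of 194 to 461 CPM and then 55.6 to 68.7. The part of these cells was not tested. The claudins that form the pores of the proximal tubule fell at both steps. Cldn10 had 224, 165 and 236 CPM on day 0, 15.8, 21.1 and 12.7 on day 1 and 1.49, 0.784 and 0.261 on day 14 (log2 fold change -4.17 ± 0.62, edgeR adjusted p = 2.14e-05). Cldn2 had 1014, 926 and 839 CPM on day 0, 51.3, 83.8 and 39.2 on day 1 and 13.95, 11.6 and 15.3 on day 14 (log2 fold change -2.08 ± 0.34, edgeR adjusted p = 5.29e-05).

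Of adherens junction genes, 12 of 14 were higher on day 14 and 1 lower, with a median log2 fold change of 1.14. Cdh3, P-cadherin, which basal and progenitor epithelia carry, was lower on day 1 than on day 0 (2.299, 2.01 and 2.54 against 9.89, 8.14 and 9.24 CPM) and reached 151, 165 and 159.8 CPM on day 14 (log2 fold change 6.07 ± 0.29, edgeR adjusted p = 2.03e-10). Nectin2, an adhesion molecule that seeds such junctions, rose from 44.1, 50.4 and 53.4 to 264, 269.9 and 272 CPM (log2 fold change 2.45 ± 0.15, edgeR adjusted p = 2.33e-09), and its relative Nectin4 from 3.36 ± 0.217 to 34.2 ± 2.804 CPM (SD, n = 3; log2 fold change 3.32 ± 0.18, edgeR adjusted p = 5.47e-10). Cdh1, E-cadherin, rose (log2 fold change 1.14 ± 0.12, edgeR adjusted p = 3.63e-07). Nectin1 was the 1 member that fell, from 6.08, 8.64 and 5.33 to 1.21, 0.997 and 0.815 CPM (log2 fold change -2.64 ± 0.36, edgeR adjusted p = 1.01e-05). Cdh16, the kidney cadherin, was not called (log2 fold change -0.15 ± 0.19, edgeR adjusted p = 0.513).

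Of desmosome and gap junction genes, 10 of 18 were higher on day 14 and 3 lower, with a median log2 fold change of 0.78, with 5 lower without day 7 replicate C. The desmosomal cadherin gene Dsg2 rose from 20.8, 19.7 and 18.8 to 146, 116 and 118 CPM (log2 fold change 2.68 ± 0.21, edgeR adjusted p = 2.94e-08), and Dsc2 from 7.61, 7.57 and 7.22 to 40.3, 39.4 and 44.4 (log2 fold change 2.46 ± 0.12, edgeR adjusted p = 2.80e-10). Dsp, the desmosomal linker desmoplakin, rose as well (log2 fold change 1.65 ± 0.26, edgeR adjusted p = 4.96e-05). Pkp2, a plaque protein, fell from 123, 137 and 114 to 60.2, 66.3 and 59.4 CPM (log2 fold change -1.01 ± 0.08, edgeR adjusted p = 2.31e-08). Gjb2, connexin 26, was a gene of the fresh tubule at 193, 191 and 203 CPM on day 0. It fell to 29.3, 44.1 and 30.9 CPM on day 1 and 5.59, 5.699 and 6.45 on day 14 (log2 fold change -2.54 ± 0.26, edgeR adjusted p = 3.59e-07 for the second step).

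**Figure D5:**
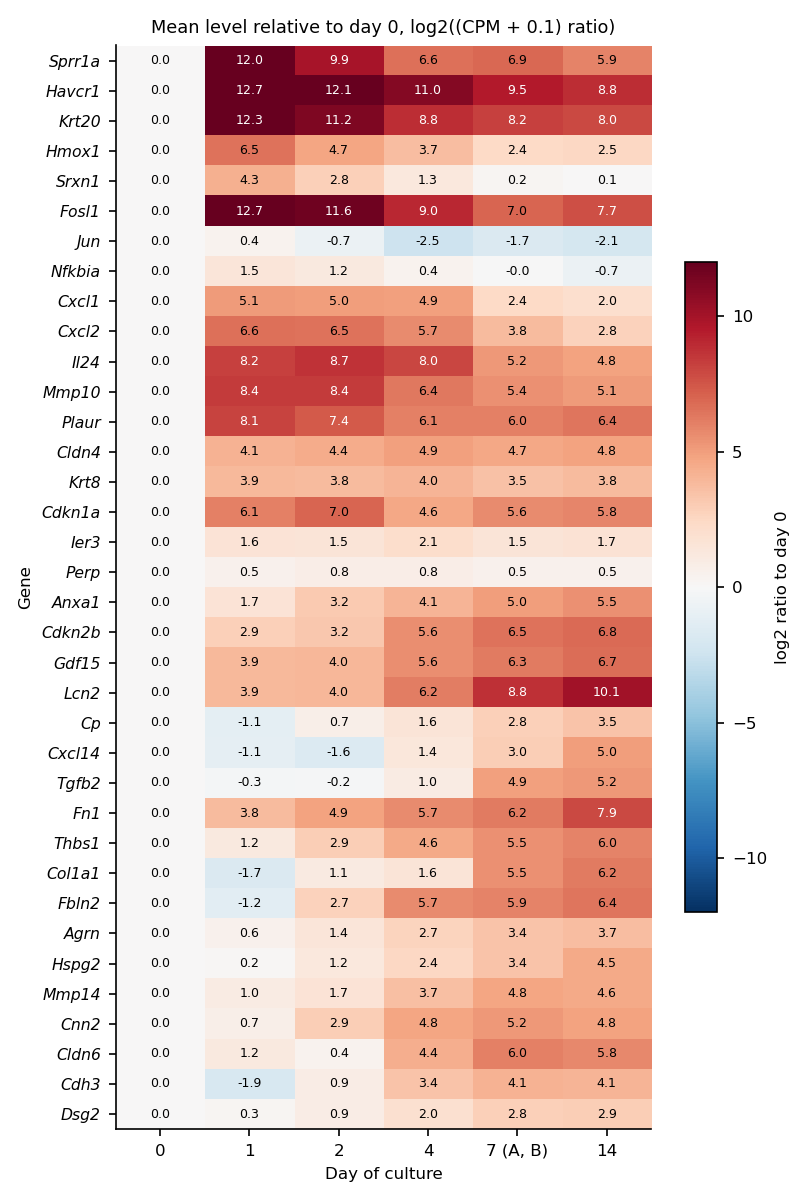
Mean level of 36 genes of the lists on each day relative to day 0, as log2 of the ratio of CPM + 0.1 (colour and printed value; day 7 is the mean of replicates A and B, since C stands apart). Genes from Sprr1a to Plaur are highest on day 1 or 2 (Il24 and Mmp10 among the latter), those from Cldn4 to Perp are about as high on day 14 as on day 1, and those from Anxa1 down are higher on day 14 than on day 1. Lcn2 ends highest above day 0 (fitted log2 fold change 10.15).

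Among genes that reached 10 CPM on either day, the largest rises began from almost nothing, and Col1a1 and Fbln2 were among the 10. Igfbp2, a secreted binder of insulin-like growth factors, had 0.0708, 0.214 and 0.0725 CPM on day 1 and 701, 489 and 715 on day 14 (log2 fold change 11.74 ± 0.89, edgeR adjusted p = 1.65e-08). Megf6, a protein with EGF-like repeats, went from 0.0354, 0.0428 and 0.218 to 241, 141 and 205 CPM (log2 fold change 10.15 ± 0.74, edgeR adjusted p = 1.01e-08). Both were close to 0 in every day 1 library and abundant in every day 14 library. Adgra1, an adhesion receptor, had 0 counts on day 1 and 26.7, 32.98 and 31.3 CPM on day 14, at least 801-fold higher by the same floor. Msln, mesothelin, rose from 1.27, 0.984 and 1.704 to 419, 493 and 465 CPM (log2 fold change 8.35 ± 0.30, edgeR adjusted p = 1.86e-11). Upk3b, a uroplakin, rose from 0.212, 0 and 0.0725 to 65.9, 42.2 and 48.4 CPM (log2 fold change 8.25 ± 1.08, edgeR adjusted p = 5.78e-06). Both are known from mesothelium, whose part was not tested. Gask1b, Kif1a and Lrrn1 rose by 8.14, 8.01 and 7.91 on the log2 scale.

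Among the largest falls were genes of proximal tubule function. Slc34a1, the apical phosphate transporter, still had 3723, 5281 and 2600.1 CPM on day 1 and had 0.8701, 0.356 and 0.293 on day 14 (log2 fold change -12.69 ± 0.51, edgeR adjusted p = 3.71e-11). Miox, the kidney enzyme of inositol breakdown, had 1327, 1919 and 1152 CPM on day 1 and 0.0932, 0.178 and 0.0326 on day 14 (log2 fold change -13.07 ± 0.47, edgeR adjusted p = 1.86e-11). Slc22a8, an organic anion transporter, and Spp2, a secreted phosphoprotein, reached 0 counts on day 14. They were at least 14078-fold and 6835-fold higher on day 1 against the floor. Klk1, tissue kallikrein, which was on no proximal tubule list and whose close relatives could share reads, had 663, 907 and 657 CPM on day 1 and 0 counts on day 14. Floors cover counting error only.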

How the data were processed

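Polyadenylated RNA of 18 libraries (6 days, 3 replicates each) was sequenced. The authors deposited 1 table of estimated counts and 1 of TPM values per gene, and the submitters' processing notes name RSEM 1.3.3, STAR 2.7.8a, cutadapt 2.3 and FastQC 0.11.8 and the build GRCm38. Neither the annotation release nor the use of strand is stated there, so reads of overlapping genes on opposite strands may not be told apart. The deposited estimated counts were whole numbers, and 878 values were 0 beside a TPM above 0. Left out were 5 reporter sequences, all at 0. Of the 55421 genes that remained, 18754 passed filterByExpr.

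Day means were fitted in 1 model over all 18 libraries with edgeR 4.0.16 (R 4.3.3; TMM, quasi-likelihood F test, prior count 2), and p-values were adjusted over all genes tested by the Benjamini-Hochberg method at 0.05. The SE is the fold change over the square root of F. CPM used TMM-scaled library sizes. Sums of marker lists were compared with an exact permutation test (scipy 1.17.1, Python 3.11.15), and figures were drawn with matplotlib 3.10.9. Tested on simulated data with 18754 genes for day 14 against day 1, the test found 2, 24, 50 and 50 of 50 genes changed 1.5, 2, 4 and 8-fold, and called 3 unchanged genes. With no change simulated it called 0. The simulation gave every gene the same fixed spread, which was not taken from these data. Changes of 1.5-fold were mostly missed at that setting, and how many are missed in the data was not tested.

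The members and the gene lists were chosen with earlier results of these data known, so no list is independent evidence. Genes were named by rule: the 4 markers, the 10 largest rises and falls that reached 10 CPM on either day with no overlap of libraries, and from each list the members with the smallest adjusted p in each direction and uncalled members with the smallest change. Other genes named for their role were chosen after their values were seen. Gene positions come from GENCODE vM21, and promoter windows from RefSeq on GRCm38.p6. Alternatives were DESeq2 1.42.0 (size factors and Wald test), library sizes alone, no filter on low counts, a prior count of 0.5, a fold of 2 as the null (glmTreat), limma 3.58.1 on log2 of the deposited TPM plus 1 or 0.1 (mean of at least 0.5 TPM, or no filter), a replicate block, only the libraries compared, no mitochondrial genes, and each library left out.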

Additional observations from a re-analysis of the deposited data

How the results depend on the processing

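Of 172 genes named by rule, 134 were called. Under all 30 alternatives 124 of the 172 kept their call or lack of one, and no called gene reversed direction. For genes without a call, direction was not compared. Tested against a fold of 2, day 14 had 2356 higher and 2261 lower genes relative to day 1, day 1 had 2574 and 3419 relative to day 0, and day 14 had 2856 and 3297 relative to day 0. With limma on log2(TPM + 1), 3012 genes were lower on day 14 than on day 1, 4559 lower on day 1 than on day 0, and for day 14 over day 0 there were 10791 higher and 2891 lower genes. With log2(TPM + 0.1) these counts were 3008, 4595, 10923 and 2840. Without a filter on TPM, day 14 had 9054 higher and 3755 lower genes relative to day 1, and 11966 higher genes relative to day 0. Leaving out 1 library at a time gave 5394 to 6442 higher and 5216 to 6471 lower genes for day 14 over day 1, 5793 to 6706 and 6599 to 7458 for day 1 over day 0, and 6535 to 7560 and 5494 to 6500 for day 14 over day 0. The cause was not tested. With the replicate letter as a block, day 14 had 5941 higher and 5867 lower genes relative to day 1. Deviations from the day means of same-lettered libraries of days 1 and 14 correlated at 0.07, 0.05 and -0.17, and not every library correlated best with its own letter. These values showed no pairing by letter. With 3 libraries a day they cannot exclude one, and the labels state none. Among lists, lower calls moved from 13 to 8 for hypoxia with TPM and no filter, from 5 to 3 for the unfolded protein response with TPM, from 4 to 1 for collagens with TPM, and from 6 to 3 for YAP targets with TPM and no filter. Against a fold of 2, higher calls moved from 16 to 7 for p53 targets and from 20 to 12 for injury genes. They moved from 11 to 4 for the integrated stress response and from 11 to 3 for the unfolded protein response. Junction lists moved from 18 to 10 (tight), 12 to 5 (adherens) and 10 to 6 (desmosome). Matricellular genes moved from 21 to 16 and collagens from 13 to 12. Depth limits low genes: Fgf21 and Cdkn2a rest on about 1 CPM on day 14.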

Other observations

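The following genes belong to no list above and were chosen after their values were seen. Hnf4a, the transcription factor that maintains proximal tubule identity, had on average 615 CPM on day 0, 61.4 on day 1 and 1.12 on day 14 (log2 fold change of day 14 over day 1 -5.68 ± 0.63, edgeR adjusted p = 1.01e-06). Pax2, a factor of the developing kidney, had on average 4.81, 2.03 and 13.9 CPM on days 0, 1 and 14 (log2 fold change of day 14 over day 1 2.73 ± 0.32, edgeR adjusted p = 2.06e-06). Lhx1, another developmental factor, had 36.3, 3.09 and 26.2 CPM (3.06 ± 0.27, edgeR adjusted p = 1.02e-07). Pax8 was not called between days 1 and 14 (0.15 ± 0.21, edgeR adjusted p = 0.553).

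Foxj1, the factor that drives motile cilia, averaged 0.265 CPM on day 1 and 38.0 on day 14 (log2 fold change 6.82 ± 0.26, edgeR adjusted p = 2.83e-11). Krt5, a keratin of basal epithelial cells, averaged 0.0753 CPM on day 0 and 19.6 on day 1, and had 0 counts on day 14. Cftr, the chloride channel, averaged 8.6 CPM, 71.5 CPM and 10.002 CPM on days 0, 1 and 14, a fall after day 1 (-2.83 ± 0.32, edgeR adjusted p = 1.18e-06).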
